A study of Mus musculus with 10 samples.

Results

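The 10 genes described here act in the handling of cholesterol. *Lipa*, *Npc1*, *Npc2*, *Abca1*, *Abcg1*, *Apoe*, *Pltp* and *Soat1* serve its lysosomal release, export, transfer to lipoproteins or storage as ester. *Mylip* encodes a ubiquitin ligase that lowers the uptake of lipoproteins, and *Ch25h* an enzyme that hydroxylates cholesterol. The 10 genes were found by their symbols in a table of read counts for 55487 genes. All 10 were present and all 10 passed the filter on low values, which kept 13740 genes with more than 1 CPM (the count of a gene scaled to a common library size) in at least 3 libraries. Each had at least 67 counts in every library, so that none passed through 1 group alone.

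Macrophages that clear myelin debris take up large amounts of cholesterol. In the lysosome, acid lipase (encoded by *Lipa*) frees cholesterol from its esters, and the soluble protein NPC2 hands it to the membrane protein NPC1, from where it leaves for other membranes. Free cholesterol is then exported by the transporters ABCA1 and ABCG1 to carriers such as apolipoprotein E (*Apoe*), or it is esterified by SOAT1 and kept in lipid droplets. Oxysterols activate the liver X receptors (LXRs), and *Abca1*, *Abcg1*, *Apoe*, *Pltp* and *Mylip* are known LXR target genes.

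The libraries were made from spinal cord cells of 5 male C57BL/6 mice aged 8 to 12 weeks at the peak of experimental autoimmune encephalomyelitis (EAE), a model of multiple sclerosis induced with the myelin peptide MOG35-55 in complete Freund's adjuvant and pertussis toxin. All mice carried the Arg1tm1Lky allele, in which yellow fluorescent protein (YFP) reports the expression of *Arg1*, the gene for arginase 1. From each mouse, viable CD3-Ly6G-CD45+CX3CR1+ cells were sorted into 200000 YFP+ (ARG1+) and 100000 YFP- (ARG1-) cells, which gave 5 ARG1+ and 5 ARG1- libraries of the same animals, m2, m6, m234, m235 and m236. According to the study, this gate does not fully part CNS-associated macrophages from monocyte-derived cells. In a bulk sort, a different share of cells that make a transcript and a different amount per cell cannot be told apart.

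Total counts were 28870482 to 33826355 in ARG1+ libraries and 28212174 to 35455643 in ARG1- libraries, apart from 8396863 in the ARG1- library of m234. *Arg1* checked the sort: ARG1+ libraries held 814 ± 174 CPM and ARG1- libraries 18.4 ± 4.96 CPM (SD, n = 5 each), without overlap. Among 7 pan-myeloid markers the most abundant was *Csf1r*, at 2142 and 2462 CPM, and *Cx3cr1*, which the gate used, had 140 and 282 CPM. The summed level of microglia markers was 776 to 1204 CPM in ARG1+ libraries and 855 to 3296 CPM in ARG1- libraries, highest in the ARG1- library of m234. Values of the genes that changed, and list counts that moved, are also given without this library.

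Promoter sequence of the 3 genes with the largest changes is shown to set the letters of a strongly expressed LXR target beside those of *Lipa* and *Ch25h*. The stretches are from RefSeq, genome build GRCm38.p6, on the reverse strand and written 5′ to 3′, and positions are counted from the start site. For *Abca1* the stretch is chr4:53159916-53160055 (positions -160 to -21), for *Lipa* it is chr19:34527475-34527574 (positions -100 to -1), and for *Ch25h* it is chr19:34475165-34475308 (positions -160 to -17). Capitals mark full matches to CACGTG or TATAAA and, in *Abca1*, the best match to the LXR element.
Abca1: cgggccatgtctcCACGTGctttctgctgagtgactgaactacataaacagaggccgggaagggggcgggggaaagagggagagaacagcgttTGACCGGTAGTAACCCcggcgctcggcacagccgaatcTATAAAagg
Lipa: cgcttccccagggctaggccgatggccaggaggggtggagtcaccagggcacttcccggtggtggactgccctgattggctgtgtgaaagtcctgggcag
Ch25h: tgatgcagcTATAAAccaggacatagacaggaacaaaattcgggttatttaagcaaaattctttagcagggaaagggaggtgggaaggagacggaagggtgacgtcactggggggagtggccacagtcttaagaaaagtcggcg

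The table held promoters of 300 bases (250 before to 50 after the start site) for 8 of the 10 genes, without *Abcg1* and *Npc1*, with 3 start sites for *Apoe*. The motifs were searched on both strands and overlap between them was allowed. The LXR element was written as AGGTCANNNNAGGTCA, with 12 fixed letters, and matched in full in 0.0152% of 32851 promoters. Its best match among the 8 genes was in *Abca1*, at -67 to -52 on the opposite strand, with 9 of 12 letters, and 21.9% of promoters had a match as good or better. The other 7 genes reached 7 or 8 of 12 letters. The E-box CACGTG, present in 7.15% of promoters, was found in *Abca1* at -147 to -142 and in no other of the 8 genes. The TATA motif TATAAA was present in 13.6% of promoters. It was found in *Abca1* at -29, *Mylip* at -32, *Ch25h* at -151, *Pltp* at 36 and 1 of the *Apoe* start sites at -96. In *Lipa* it was found at -239 on the opposite strand. These are matches of letters and describe no binding.

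In the comparison of ARG1+ with ARG1- cells, which asked how the 2 sorted populations of the inflamed spinal cord differ in their transcripts, 3 of the 10 genes rose in ARG1+ cells, 1 fell and 6 did not pass the test. *Abca1*, *Lipa* and *Npc1* were higher by 31.2% to 65.7%, and *Ch25h*, the cholesterol 25-hydroxylase, was at 0.444 of its ARG1- level. The test was edgeR's quasi-likelihood test on the counts with TMM library sizes and a Benjamini-Hochberg false discovery rate (FDR) below 0.05 over all 13740 genes. By the same rule 937 genes (6.82%) were higher and 845 (6.15%) lower. With a limit of 1 on the absolute log2 fold change in addition, 77 genes (0.56%) were higher and 122 (0.888%) lower, and of the 10 genes only *Ch25h* passed. The groups of libraries did not overlap, with ARG1+ above, in 845 genes (6.15%), among them *Abca1*, *Lipa* and *Npc1*, and with ARG1+ below in 714 genes (5.2%), among them *Ch25h*. With the animal as a replicate block, which uses that both libraries of a mouse deviate together, 2307 genes (16.8%) were higher and 2519 (18.3%) lower. In that fit 6 of the 10 genes were higher (*Abcg1*, *Apoe* and *Soat1* in addition) and *Ch25h* was lower. In all 5 animals the ARG1+ library was higher for *Abca1*, *Lipa*, *Npc1*, *Abcg1*, *Apoe* and *Soat1*, and lower for *Ch25h* and *Npc2*. The share of all tested genes with the same direction in all 5 animals was not counted, so these are directions only. Positive log2 values mean a higher level in ARG1+ cells.

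**Figure D1:**
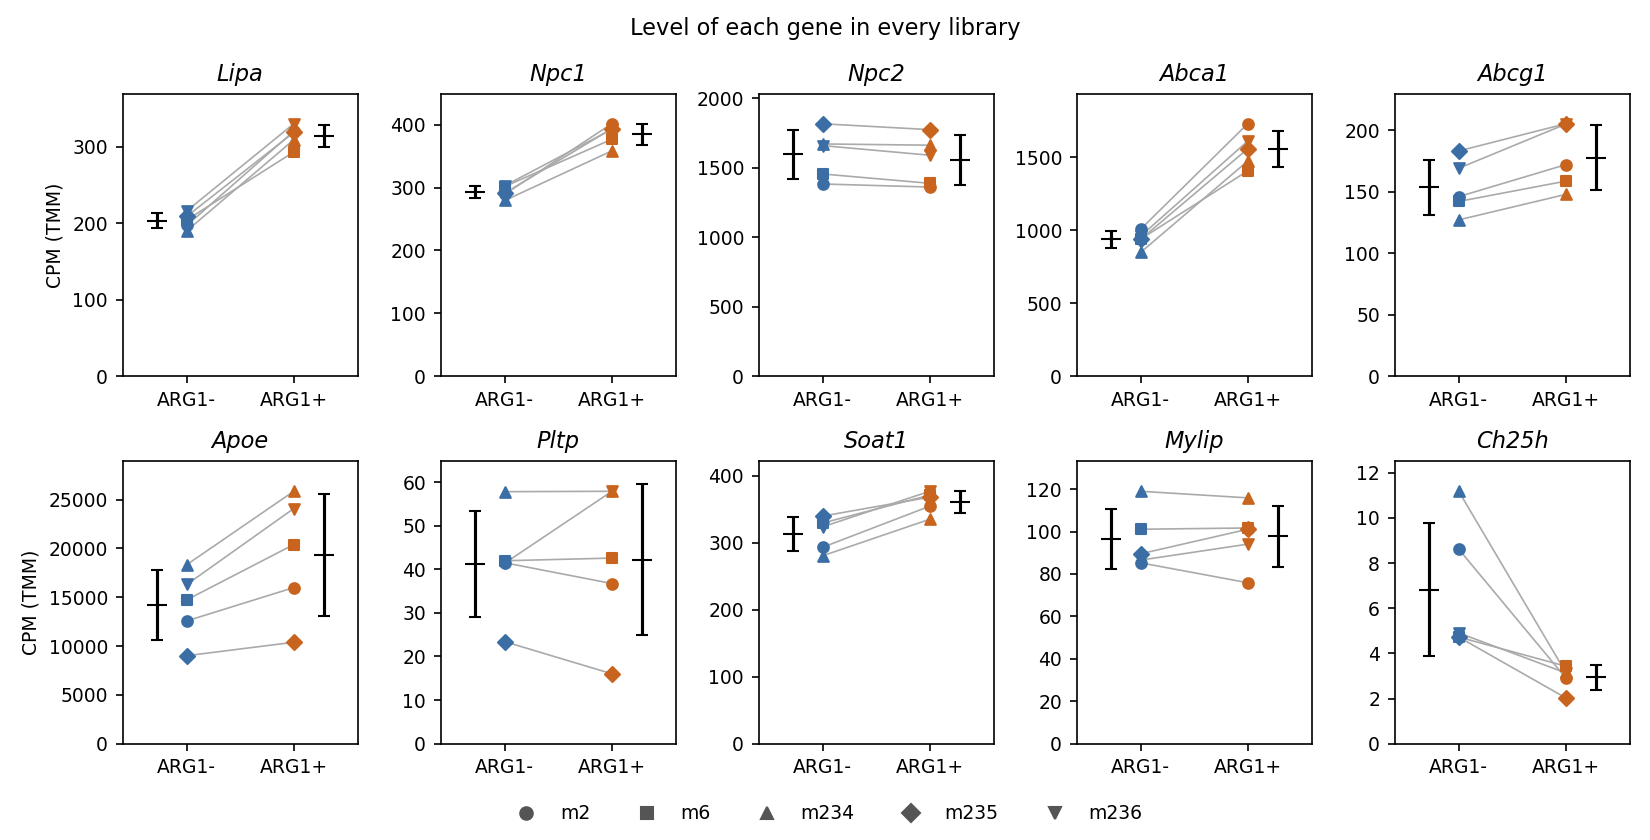
Level of each of the 10 genes in every library, in CPM with TMM library sizes on an axis that starts at 0 in each panel. Symbols are animals, grey lines join the ARG1- (blue) and ARG1+ (orange) library of the same mouse, and the bars beside them give the mean ± SD of 5 libraries; the groups do not overlap for Lipa, Npc1, Abca1 and Ch25h, and for Apoe all 5 lines rise while the groups overlap.

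Of the lysosomal genes, *Lipa* and *Npc1* rose in ARG1+ cells and *Npc2* did not pass the test. *Lipa* (ENSMUSG00000024781, GRCm38 chromosome 19 from 34492318 to 34527474, reverse strand) had 320.5, 293, 309, 319 and 330.3 CPM in ARG1+ cells of m2, m6, m234, m235 and m236 and 197, 204.5, 190.2, 209 and 216 CPM in their ARG1- cells. The 2 groups of libraries did not overlap: the lowest ARG1+ level, in m6, was 293 CPM against a highest ARG1- level of 216 CPM, in m236. The means were 314.5 ± 13.9 and 203.5 ± 10.2 CPM (SD, n = 5 libraries each), and the fitted log2 ratio was 0.63 (SE 0.054, 95% interval 0.51 to 0.75, edgeR FDR 0.00011). It ranked 9 of all tested genes by p value. The libraries of *Lipa* were tight, with a coefficient of variation of 4.43% in ARG1+ and 5.0% in ARG1- cells. Without the ARG1- library of m234 its log2 fold change was 0.61.

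*Npc1* (ENSMUSG00000024413, chromosome 18 from 12189692 to 12236400, reverse strand), which carries cholesterol out through the lysosomal membrane, had 401, 377, 358, 393.5 and 392 CPM in ARG1+ cells and 289, 302, 279, 291 and 303 CPM in ARG1- cells, in the same order of animals. All ARG1+ libraries were higher than all ARG1- libraries, and the animals differed little within a group. The means were 384 ± 17.2 and 293 ± 9.63 CPM (SD, n = 5 libraries each), and the fitted log2 ratio was 0.39 (SE 0.051, 95% interval 0.28 to 0.50, edgeR FDR 0.000886), and 0.38 without the ARG1- library of m234. Of its exon bases 5.4% lie opposite exons of *Rmc1* and *Gm15956*, and the sources do not say if reads were counted by strand. *Rmc1* had 54.3 and 47.6 CPM (edgeR FDR 0.216), and *Gm15956* had 107 and 64 counts summed over the libraries of each group.

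*Npc2* (ENSMUSG00000021242, chromosome 12 from 84754562 to 84773152, reverse strand), the soluble partner of *Npc1*, had 1360, 1387, 1661, 1773 and 1589 CPM in ARG1+ cells and 1382, 1454, 1670, 1815 and 1658 CPM in ARG1- cells. The animals had the same order in both groups, with m235 highest and m2 lowest. The mean levels were 1554 ± 178 and 1596 ± 176 CPM (SD, n = 5 libraries each), and the fitted log2 ratio was -0.04 (SE 0.097, 95% interval -0.25 to 0.17, edgeR FDR 0.828). In each animal the ARG1+ library was lower, by 0.01 to 0.07 on the log2 scale, and the block left the call as it was (log2 fold change -0.04, FDR 0.4425). The interval leaves out changes of the size seen for *Lipa* and *Npc1*.

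Of the exporters, *Abca1* rose the most of the 10 genes and *Abcg1* moved by less. *Abca1* (ENSMUSG00000015243, chromosome 4 from 53030787 to 53159895, reverse strand), which loads cholesterol onto lipid-poor apolipoproteins, had 1730, 1407, 1474, 1558 and 1611 CPM in ARG1+ cells and 1008, 940, 849, 939 and 961 CPM in ARG1- cells. The lowest ARG1+ library, of m6, was above the highest ARG1- library, of m2,. The means were 1556 ± 125 and 939 ± 57.7 CPM (SD, n = 5 libraries each), and the fitted log2 ratio was 0.73 (SE 0.072, 95% interval 0.57 to 0.89, edgeR FDR 0.000176). Within animals the log2 difference was 0.58 to 0.80. *Abca1* ranked 25 of all tested genes by p value. Without the ARG1- library of m234 its log2 fold change was 0.70.

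*Abcg1* (ENSMUSG00000024030, chromosome 17 from 31057675 to 31117988, forward strand), which exports cholesterol to mature lipoprotein particles, had 172, 159, 148, 205 and 205 CPM in ARG1+ cells and 146, 142, 127, 183 and 169 CPM in ARG1- cells. The groups overlapped, since the animals m235 and m236 were high and m234 was low in both. The means were 178 ± 26.4 and 154 ± 22.4 CPM (SD, n = 5 libraries each), and the fitted log2 ratio was 0.21 (SE 0.116, 95% interval -0.04 to 0.46, edgeR FDR 0.248). In every animal the ARG1+ library was higher, by 0.16 to 0.28 on the log2 scale. With the animal as a block the log2 fold change was again 0.21 and the gene passed (FDR 0.00119).

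Of the lipoprotein components, *Apoe* was the most abundant of the 10 genes and varied more between animals than between groups. *Apoe* (ENSMUSG00000002985, chromosome 7 from 19696109 to 19699188, reverse strand) had 15990, 20400, 25860, 10390 and 24090 CPM in ARG1+ cells and 12580, 14740, 18340, 9013 and 16310 CPM in ARG1- cells, and took 0.893% to 2.53% of all counts of a library. The animal m235 was lowest and m234 highest in both groups, and the groups overlapped. The means were 19350 ± 6276 and 14200 ± 3582 CPM (SD, n = 5 libraries each), and the fitted log2 ratio was 0.45 (SE 0.242, 95% interval -0.08 to 0.97, edgeR FDR 0.238). Each animal had more *Apoe* in its ARG1+ library, by 0.20 to 0.56 on the log2 scale. With the animal as a block the log2 fold change was 0.42 and the gene passed (FDR 0.000632).

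*Pltp* (ENSMUSG00000017754, chromosome 2 from 164839518 to 164857711, reverse strand), the phospholipid transfer protein, had 36.7, 42.6, 57.9, 16.04 and 57.8 CPM in ARG1+ cells and 41.5, 42.0, 57.8, 23.4 and 41.4 CPM in ARG1- cells. As for *Apoe*, m235 was lowest and m234 highest in both groups. The ARG1+ library was higher in 3 of 5 animals, and the fitted log2 fold change was 0.05 (SE 0.306, 95% interval -0.62 to 0.72, edgeR FDR 0.936). With a coefficient of variation of 41.1% in ARG1+ and 29.6% in ARG1- cells, the fit without the block could not resolve changes within this wide interval. With the animal as a block the value was -0.02 with a smaller SE of 0.111, and the gene did not pass (FDR 0.896). Of the exon bases of *Pltp*, 21% lie opposite exons of *Ctsa*, a far more abundant gene at 948 and 741 CPM (edgeR FDR 0.00633), and 10.8% of its stretches of 50 bases also occur there, so that its level is uncertain.

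The esterifying enzyme was close to the threshold. *Soat1* (ENSMUSG00000026600, chromosome 1 from 156424525 to 156474331, reverse strand) had 354, 371, 335, 368 and 377 CPM in ARG1+ cells and 293, 329, 280.5, 340 and 324 CPM in ARG1- cells. The groups met only at their edges, where the ARG1+ library of m234 (335 CPM) lay below the ARG1- library of m235 (340 CPM). The means were 361 ± 16.7 and 313 ± 25.2 CPM (SD, n = 5 libraries each), and the fitted log2 ratio was 0.20 (SE 0.065, 95% interval 0.06 to 0.34, edgeR FDR 0.0587). All 5 animals had the higher level in ARG1+ cells. The gene passed with the animal as a block (FDR 0.00201) and with DESeq2 (FDR 0.0181). In edgeR it passed without the ARG1+ library of m234 (FDR 0.0461) or the ARG1- library of m235 (FDR 0.0435). In 13 of the 15 fits with a library or animal left out it did not pass (FDR up to 0.192). Nor did it pass with limma-trend (FDR 0.0518), or in edgeR with other library sizes or filters (FDR up to 0.111).

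Of the feedback genes, *Ch25h* fell and *Mylip* did not pass the test. *Ch25h* (ENSMUSG00000050370, chromosome 19 from 34473778 to 34475164, reverse strand) makes 25-hydroxycholesterol, an oxysterol that acts on LXRs and holds back sterol synthesis. It was the least abundant of the 10 genes, with 2.92, 3.43, 3.17, 2.03 and 3.14 CPM in ARG1+ cells and 8.61, 4.72, 11.2, 4.72 and 4.91 CPM in ARG1- cells. Every ARG1+ library lay below every ARG1- library, and the ARG1- libraries of m2 and m234 stood above the other three. These 2 libraries also had the highest summed microglia markers, 1602 CPM in m2 and 3296 CPM in m234, against 855 to 1294 CPM in the other ARG1- libraries. The part of these markers in the result was not tested.

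The mean levels of *Ch25h* were 2.94 ± 0.538 and 6.83 ± 2.94 CPM (SD, n = 5 libraries each), and the fitted log2 ratio was -1.17 (SE 0.258, 95% interval -1.73 to -0.61, edgeR FDR 0.013), from 67 to 273 counts per library. Without the ARG1- library of m234 it was -0.97 (FDR 0.0146) and so short of the limit of 1, and without both libraries of m2 it was -1.05 and no longer passed (FDR 0.0794). *Ch25h* lies 17153 bases from *Lipa*, which changed the other way. Of its exon bases 9.66% lie opposite exons of *Gm26902*, which had 22 counts in all ARG1+ and 82 in all ARG1- libraries and was not among the genes tested.

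*Mylip* (ENSMUSG00000038175, chromosome 13 from 45389742 to 45412022, forward strand), a ubiquitin ligase that lowers the uptake of lipoproteins, had 75.9, 102, 116, 101 and 94.1 CPM in ARG1+ cells and 85.2, 101, 119, 89.5 and 86.5 CPM in ARG1- cells. It was highest in m234 and lowest in m2 in both groups. The means were 97.7 ± 14.6 and 96.3 ± 14.1 CPM (SD, n = 5 libraries each), and the fitted log2 ratio was 0.03 (SE 0.116, 95% interval -0.23 to 0.28, edgeR FDR 0.904), and 3 of 5 animals were higher in ARG1+ cells.

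**Figure D2:**
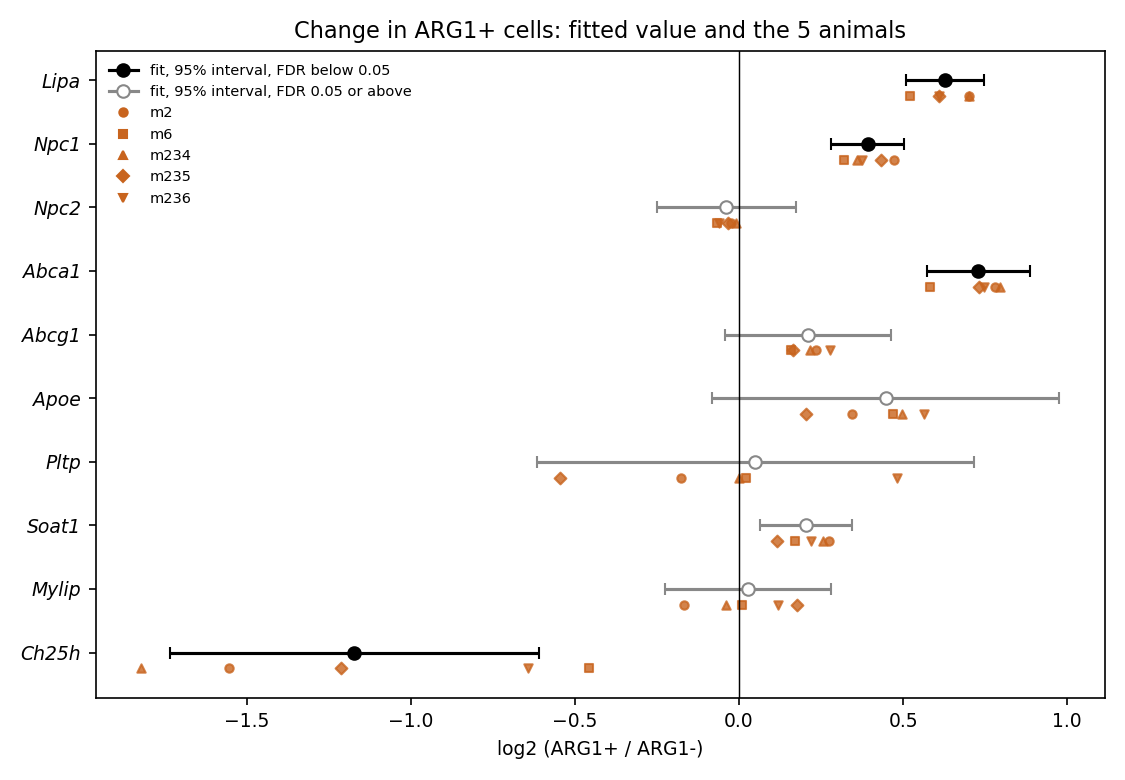
Log2 ratio of ARG1+ to ARG1- cells for each of the 10 genes. Circles with bars are the fitted value and its 95% interval (black, FDR below 0.05; grey, FDR 0.05 or above) and the small orange symbols under them are the differences within each of the 5 animals; Abca1, Lipa and Npc1 lie right of 0 and Ch25h left of it in all 5 animals, and for Abcg1, Apoe and Soat1 all 5 animals lie right of 0 while the FDR is 0.05 or above.

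A 2-sided exact permutation test of log2 CPM, 5 libraries against 5, gave p = 0.00794 for *Abca1*, *Lipa*, *Npc1* and *Ch25h*, the smallest value that 5 libraries against 5 allow. It gave p = 0.0159 for *Soat1*, 0.151 for *Abcg1*, 0.206 for *Apoe*, 0.675 for *Npc2*, 0.857 for *Pltp* and 0.889 for *Mylip* in the same exact test. These p values are not adjusted. The test shuffled the libraries without regard to the animal, so it did not use that both groups came from the same mice. All animals belong to the same study, and the sample titles name no batch or experiment.

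Levels of different genes can be compared per kilobase of exon. On that scale the order was the same in both groups: *Apoe* (10530 CPM per kilobase in ARG1+ and 7723 in ARG1- cells), *Npc2* (471 and 484), *Abca1* (152 and 91.5), *Lipa* (106 and 68.5), *Npc1* (73.6 and 56.1), *Soat1* (43.1 and 37.4), *Mylip* (30.2 and 29.8), *Abcg1* (26.04 and 22.5), *Pltp* (17.9 and 17.5) and *Ch25h* (2.12 and 4.92). In ARG1+ libraries the neighbours *Mylip* and *Abcg1*, and *Abcg1* and *Pltp*, overlapped. In ARG1- libraries *Soat1* and *Mylip* overlapped too. All other neighbours in this order were apart in every library.

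Ratios within a library do not depend on the library size. From these genes 7 pairs were compared, all of them picked with the results of the single genes known. The mean log2 ratio of *Abca1* to *Abcg1* was 3.14 in ARG1+ and 2.62 in ARG1- cells, a difference of 0.52. Of the lysosomal pairs, the log2 ratio of *Lipa* to *Npc2* differed by 0.67, that of *Npc1* to *Npc2* by 0.43 and that of *Lipa* to *Npc1* by 0.24. The exporter *Abca1* gained on the esterifying *Soat1* by 0.52, and *Apoe* gained by 0.46 on *Pltp*, whose level is uncertain. The difference for *Lipa* to *Ch25h* was 1.77. In each of the 7 pairs the ARG1+ libraries all lay above the ARG1- libraries and all 5 animals went the same way (2-sided exact permutation test, p = 0.00794 for each, and 0.00794 adjusted over the 7 pairs). Since the pairs were picked for such differences, these p values describe the pairs and are not independent evidence.

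The genes with the profile nearest to each changed gene were found over the 10 libraries by the root mean square distance of log2 CPM, each gene centred on its own mean. Nearest to *Abca1* was *Lipa* (distance 0.0864, against a median of 0.416 over all tested genes), before *Wwp1* (0.0956) and *Septin8* (0.109). *Arl11* (0.0789), *Creg1* (0.0827) and *Nceh1* (0.0857) were nearest to *Lipa*, against a median of 0.3675. For *Npc1* they were *Ext2* (0.0315), *Galk2* (0.0473) and *Dtnbp1* (0.0497), against 0.271, and for *Ch25h* they were *Ctnnal1* (0.181), *Fgd2* (0.186) and *Ggt5* (0.207), against 0.724. Since the groups differ, genes with a like fold change and little spread have near profiles.

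Around these 10 genes, 87 further genes of cholesterol handling were grouped into 5 lists, and not all of them passed the filter. Of those tested, 12 rose and 9 fell, by at most 0.74 on the log2 scale. Over all tested genes the same rule called 6.82% higher and 6.15% lower, and 16.8% and 18.3% with the animal as a block. The counts of each list are to be read beside these shares. Without both libraries of m2, 7 of the listed genes rose and 1 fell. Of 24 tested genes for other cholesterol transfer and storage, 6 rose and 3 fell (median log2 fold change 0.03, against -0.002 for all tested genes), and 9 and 8 with the animal as a block. Of those that passed, the largest change was in *Gramd1b*, a carrier of cholesterol from the plasma membrane to the endoplasmic reticulum, with 95.04 ± 9.15 and 56.4 ± 9.56 CPM and a log2 fold change of 0.74 (edgeR FDR 0.00152). *Nceh1*, a hydrolase of cholesterol esters outside the lysosome, followed with 151.5 and 96.8 CPM and 0.64 (edgeR FDR 0.000439). The lysosomal membrane gene *Lamp1* was the most abundant, at 1794 and 1365 CPM with a log2 fold change of 0.39, and *Scarb2*, *Stard5* and *Abca3* also rose. *Soat2*, the second esterifying enzyme, fell by 0.64 on the log2 scale from 6.93 to 4.40 CPM (edgeR FDR 0.0103), and *Lipe* and *Abca7* also fell. The lipid droplet coat gene *Plin2* had 833 and 579 CPM and did not pass (edgeR FDR 0.089), while it passed with the animal as a block (FDR 2.78e-05).

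Of 6 tested LXR genes and their partners, 1 passed (median 0.02), and with the block 2 rose and 1 fell. The gene that rose in edgeR was *Rxra*, the dimer partner of the LXRs, with 125 and 85.6 CPM and a log2 fold change of 0.55 (edgeR FDR 0.000392). *Ncor1*, a corepressor and the most abundant of this list, had 198 and 191 CPM. The receptors themselves had 33.2 and 26.9 CPM (*Nr1h3*, edgeR FDR 0.198, with the block 0.00492) and 109 and 110.0 CPM (*Nr1h2*, edgeR FDR 0.838). Of 12 other tested LXR target genes, 3 rose and 1 fell (median 0.32): *Smpdl3a* by 0.59, *Scd2* by 0.58 and *Mertk* by 0.42 on the log2 scale, while *Arl4c*, at 268 and 355 CPM the most abundant of the list, fell by 0.40. With the block 6 rose and 2 fell. Of the 5 LXR target genes among the 10, *Abca1* passed without the block, and *Abcg1* and *Apoe* passed in addition with it.

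Of 10 tested genes for the uptake of lipoproteins and sterols, 1 rose and 1 fell (median 0.14), and 4 and 2 with the block. Without the ARG1- library of m234, 2 of them rose and the gene that fell no longer passed. *Lrp1*, a receptor for *Apoe*-bearing particles and the most abundant of the list, rose from 2243 ± 156 to 3067 ± 350.3 CPM (log2 fold change 0.45, edgeR FDR 0.00645). Of 27 tested genes for sterol synthesis and its control, 1 rose and 4 fell (median -0.10). Of those that passed, the demethylase *Cyp51* changed the most and fell by 0.60 on the log2 scale (edgeR FDR 0.0432), and *Srebf2*, which drives sterol synthesis genes, fell from 132.5 to 99.8 CPM (edgeR FDR 0.0359). *Lbr* also fell, and *Mbtps2* rose. With the animal as a block, 5 of the synthesis genes rose and 11 fell, whereas without the ARG1- library of m234 1 fell. Of the genes of the 5 lists, those not the most abundant, not the most changed and not near *Lipa* were named after their values were seen.

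**Figure D3:**
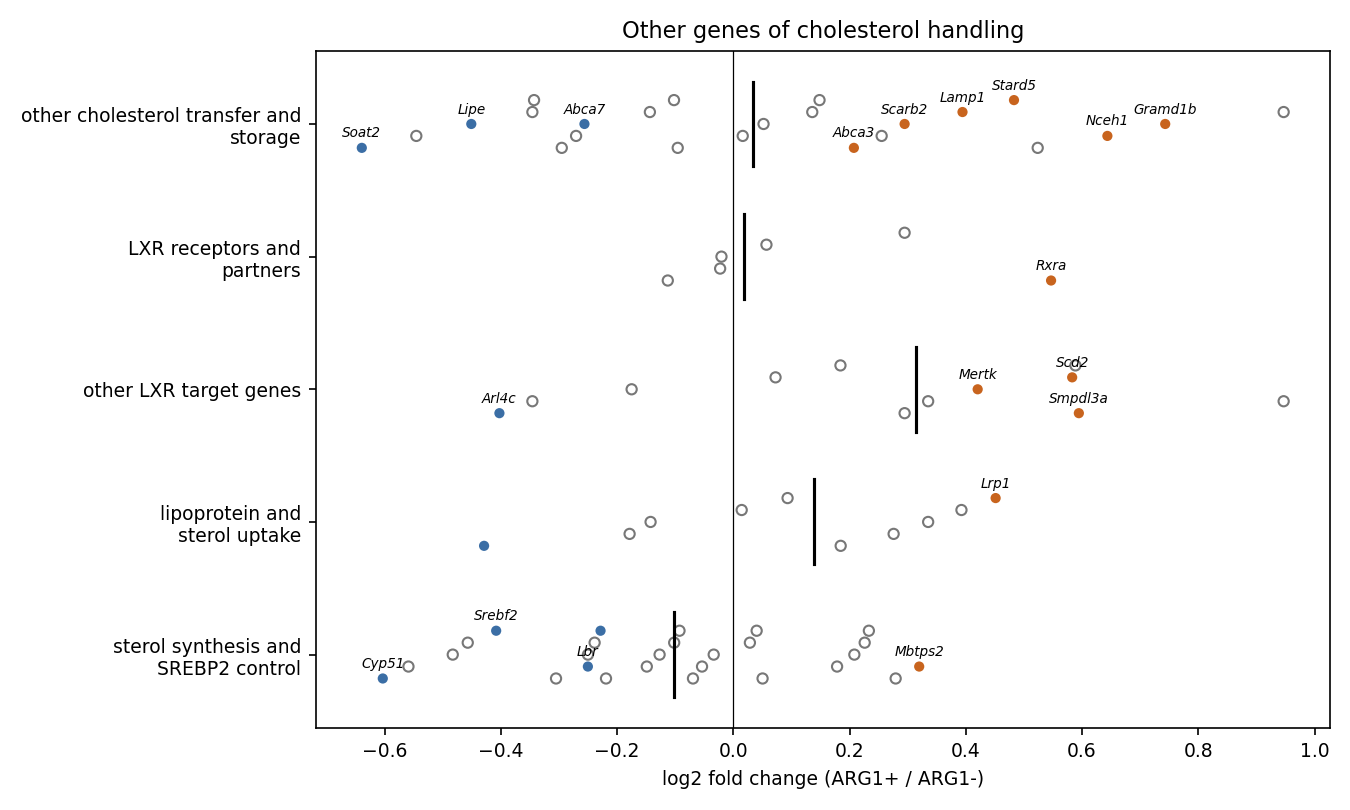
Log2 fold change (ARG1+ over ARG1-) of the tested genes in 5 lists of cholesterol handling that exclude the 10 genes. Each circle is a gene (orange, higher at FDR below 0.05; blue, lower; open, not passed), spread vertically only for legibility, and the black line is the median of the list; labels name most of the genes that passed, and no gene that passed lies beyond 1 in either direction.

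Some markers of myeloid cell types differed between the groups. Of the 7 border-associated macrophage markers 3 were tested, and *Stab1*, *Mrc1* and *Pf4* all rose, but only 2 of them without the ARG1- library of m234. The most abundant was *Stab1* at 841 and 548 CPM. The summed level of the 7 markers was 798 to 1071 CPM in ARG1+ and 505 to 636 CPM in ARG1- libraries, without overlap. Most of this sum was *Stab1*, since *Mrc1* had 61.05 and 26.8 CPM and *Pf4* had 17.3 and 4.47 CPM. The mean levels of *Cd163* and *Lyve1* were below 0.1 CPM. Of 8 monocyte markers *Lyz2* rose, at 11380 and 7262 CPM, and *Ccr2*, *Plac8* and *Vcan* fell, and the sums were 21730 to 28760 and 14660 to 22080 CPM. With the animal as a block 3 of the monocyte markers rose and 4 fell. The 10 microglia markers had a median log2 fold change of -1.18. In edgeR 0 of them passed (6 were lower at an unadjusted p under 0.05), while 2 fell with DESeq2 and 8 with the animal as a block. Of the pan-myeloid markers *Cd68* and *Itgam* rose and *Aif1* fell, with the block all 7 passed (3 higher and 4 lower), and without the ARG1- library of m234 1 rose and 1 fell. Dendritic cell markers had sums of 10.9 to 26.9 and 23.5 to 44.6 CPM, and 5 of 6 tested fell, with *Clec9a*, the most abundant, not among them.

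Markers of further cell types were summed in the same way. The summed markers of B and plasma cells were 1.94 to 4.41 and 4.42 to 11.2 CPM in ARG1+ and ARG1- libraries (*Jchain* fell, and the most abundant was *Cd79b*). Those of T cells were 0.743 to 1.6 and 0.394 to 1.86 CPM, and those of NK cells 0.303 to 0.678 and 0.706 to 1.64 CPM. Neutrophil markers had sums of 18.3 to 30.5 and 13.1 to 32.4 CPM (*S100a9* fell, and the most abundant was *S100a8*). Oligodendrocyte markers, led by *Mbp*, had 147 to 180.2 and 137.5 to 197 CPM, astrocyte markers 5.67 to 10.8 and 7.55 to 20.1 CPM (*Gja1* rose), endothelial markers 68.3 to 125 and 110 to 145 CPM (*Flt1* fell) and neuron markers 0.394 to 0.939 and 0.250 to 0.750 CPM. Of the oligodendrocyte markers 2 rose without the ARG1- library of m234, against 0 with it (1 was higher and 1 lower at an unadjusted p under 0.05, and as many with DESeq2). With the block, the neutrophil, oligodendrocyte and astrocyte lists each had 1 marker higher and 1 lower. The part of any of these markers in the changes of the 10 genes was not tested.

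**Figure D4:**
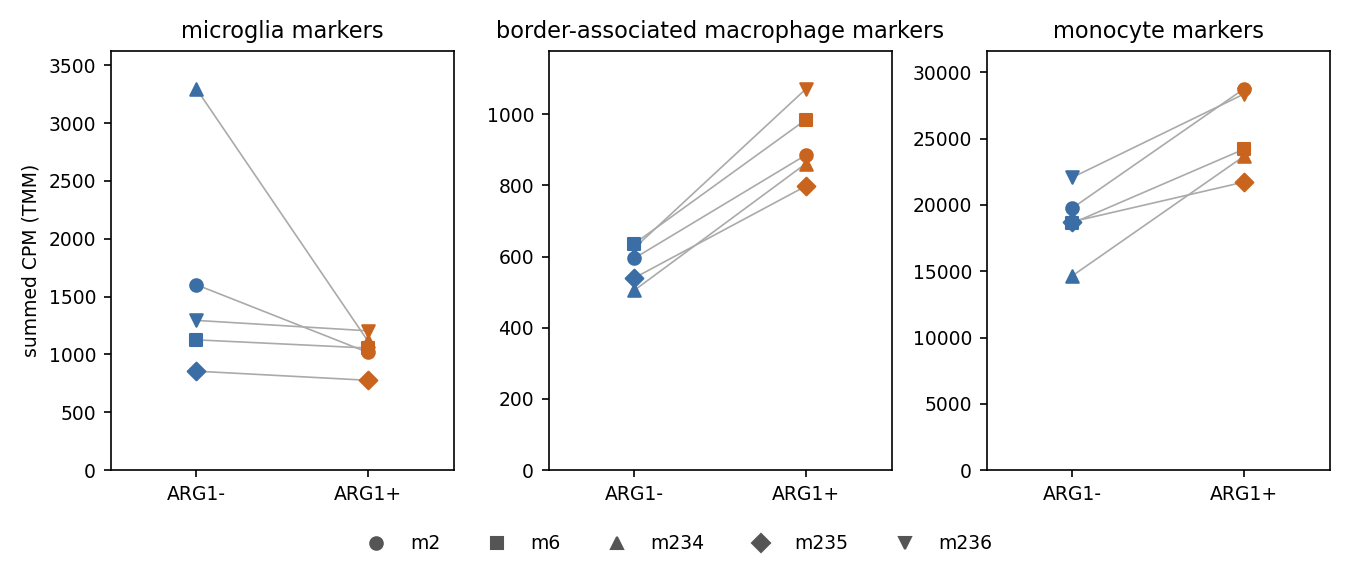
Summed CPM of the microglia, border-associated macrophage and monocyte markers in every library, on axes that start at 0. Symbols are animals and grey lines join the ARG1- (blue) and ARG1+ (orange) library of a mouse. The ARG1- library of m234 stands highest for microglia markers at 3296 CPM. The border-associated macrophage sums, which are mostly Stab1, do not overlap between the groups.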

How the data were processed

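RNA was sequenced from 10 libraries, an ARG1+ and an ARG1- sort of each of 5 mice. The deposited values are read counts per gene, whole numbers that the authors made without normalization from 50-base single-end reads: STAR (2.7.10b in the submitters' processing notes) aligned them to GRCm38, and summarizeOverlaps in Union mode, which drops a read on more than 1 feature, counted them on the basic Ensembl annotation. The methods and labels do not state if counting used the strand. All sample columns were used (0 unused). 1 CPM is 8.40 counts in the smallest library, and the tested genes held 99.8% of the counts.

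The filter kept genes above 1 CPM in 3 or more libraries, which were tested with edgeR 4.0.16 (R 4.3.3), its quasi-likelihood test, TMM library sizes and no block, with Benjamini-Hochberg adjustment. Log2 CPM had 0.5 counts added. Alternatives were DESeq2 1.42.0, limma-trend (limma 3.58.1, prior count 2, the method the study names), other library sizes and filters, a replicate block for the animal, and the fit without each library or each animal in turn. The same mice gave both groups, so that the numbers pair the libraries: residuals of a mouse's libraries correlated at 0.361 to 0.66 across genes, and those of different mice at most at 0.0672. Libraries of 1 group differed far beyond counting error (chi-square over its degrees of freedom from 14.2 to 57.1), so each was kept. Exon lengths, overlaps and shared stretches come from a GENCODE annotation of the same build, coordinates of genes from the table, and promoters from RefSeq.

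The 10 genes, the lists and the tests were chosen with earlier results of these data known. Named were the 10 genes, *Arg1*, per list of cholesterol handling the genes past both limits, the most abundant gene and the one most changed past the FDR, per marker list the most abundant gene, and the 3 genes nearest in profile to each of the 10 that passed. A few genes so chosen were left out and are not given here.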

Additional observations from a re-analysis of the deposited data

How the results depend on the processing

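*Abca1*, *Lipa* and *Npc1* kept their direction and passed the FDR under all alternatives run. With a library or animal left out in turn their log2 fold changes were 0.69 to 0.76, 0.61 to 0.65 and 0.37 to 0.42, and that of *Ch25h* was -1.35 to -0.97. With the replicate block, 2307 genes were higher and 2519 lower (213 past the fold limit), against 937, 845 and 122 without it. Of the 10 genes 6 were then higher, and of the other cholesterol genes 25 rose and 24 fell, against 12 and 9. With DESeq2 1307 genes were lower (186 past the fold limit), with no filter 190 were lower past that limit, and with total counts as library sizes 701 were higher and 1282 lower, with a median log2 fold change of -0.04 over all genes. The cause of these shifts was not tested. With a library or animal left out, 360 to 1037 genes were higher (360 without the animal m6, 372 without m2, 500 without m236, 572 without the ARG1+ library of m2) and 284 to 911 lower, 53 to 87 and 68 to 168 past the fold limit. Of the 10 genes 3 to 4 were then higher and 0 to 1 lower, and of the other cholesterol genes 6 to 15 rose and 1 to 9 fell (1 without the animal m2), and only 5 of these 15 fits left the last count within 1.5 times. Small changes turned their sign: *Npc2* ranged from -0.090 to 0.018 with libraries left out (0.006 without the ARG1+ library of m2, 0.0002 without that of m6, 0.018 without the ARG1- library of m235), *Pltp* was -0.043 with limma-trend and -0.023 with the block and ranged from -0.095 to 0.26, and *Mylip* was -0.015 with total counts and ranged from -0.039 to 0.11. The block changed no other call of the 10 genes than those of *Abcg1*, *Apoe* and *Soat1*. *Ch25h* had the fewest counts of the 10 genes, from 67 to 273 per library, and 95 in the shallow ARG1- library of m234.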
